A study of Mus musculus with 2 samples.

Results

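GATA4 occupied sites (OS) were examined at 9 mouse genes of selenium biology: Sepp1, Gpx1, Gpx3, Gpx4, Txnrd1, Txnrd2, Dio1, Sephs2 and Secisbp2. OS were selected by position, as peaks of the list common to SPP and MACS2 whose midpoint lay in the body of one of these genes or within 50 kb of it. This gave 15 of the 4409 common OS, at 5 of the 9 genes. GATA4 ChIP followed by sequencing was performed on whole liver of C57BL/6 x Sv129 mice, 2 to 3 months of age by the labels, with the antibody GATA4 C-20, and input DNA of the same strain and age served as background. No allele or treatment is given for either group, and by the methods each replicate was whole liver from a pair of mice, whose stated ages run slightly above those of the labels. The labels give 1 ChIP sample and 1 input sample, and the peak lists cover the replicates together, so no value has a replicate error, and the reads under single peaks are not in the files. The positions of the peaks chose the OS, so their number and their distance to the genes are given as a description.

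Selenium enters proteins as selenocysteine, an amino acid that is built on its own tRNA and inserted at a UGA codon of the mRNA. The liver takes up selenium from the diet and passes it to other tissues as selenoprotein P, the product of Sepp1, a plasma protein made mainly by hepatocytes. Most of the other selenoproteins are redox enzymes that place selenocysteine in their active site. GATA4 is a zinc finger transcription factor that binds WGATAR, which is A or T, then GATA, then A or G.

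The sequences of the 8 OS whose nearest protein-coding transcription start site (TSS) was that of a selenium gene are shown first, since no other protein-coding gene starts nearer to them. They are read from the plus strand of mm9 (NCBI Build 37), which is also the strand of Sepp1, Gpx4 and Txnrd1, and capitals mark WGATAR on either strand, so that a match on the minus strand appears as its reverse complement. Each OS is named by its number in the common list. OS 3550 and OS 3635 are 320 bp wide and only the central 300 bases are printed.
Sepp1 OS 1054, chr15:3176662-3176859: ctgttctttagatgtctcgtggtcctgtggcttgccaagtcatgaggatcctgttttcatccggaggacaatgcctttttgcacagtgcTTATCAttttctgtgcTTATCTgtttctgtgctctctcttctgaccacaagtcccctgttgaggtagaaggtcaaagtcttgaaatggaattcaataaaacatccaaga
Sepp1 OS 3550, chr15:3178193-3178492: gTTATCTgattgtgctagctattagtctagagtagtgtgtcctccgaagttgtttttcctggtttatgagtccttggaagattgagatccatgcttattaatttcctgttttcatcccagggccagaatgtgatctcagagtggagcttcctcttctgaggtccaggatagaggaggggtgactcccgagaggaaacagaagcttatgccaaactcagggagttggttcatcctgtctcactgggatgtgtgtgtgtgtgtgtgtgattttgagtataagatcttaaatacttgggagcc
Sepp1 OS 1809, chr15:3182584-3182725: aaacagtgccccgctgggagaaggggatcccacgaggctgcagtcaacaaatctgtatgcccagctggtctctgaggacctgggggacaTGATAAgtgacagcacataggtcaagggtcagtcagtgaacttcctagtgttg
Sepp1 OS 185, chr15:3197552-3197789: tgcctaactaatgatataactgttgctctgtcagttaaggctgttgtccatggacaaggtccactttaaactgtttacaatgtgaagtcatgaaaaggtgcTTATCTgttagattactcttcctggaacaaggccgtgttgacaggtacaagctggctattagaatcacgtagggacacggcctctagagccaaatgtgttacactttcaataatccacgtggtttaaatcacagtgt
Sepp1 OS 2138, chr15:3201136-3201264: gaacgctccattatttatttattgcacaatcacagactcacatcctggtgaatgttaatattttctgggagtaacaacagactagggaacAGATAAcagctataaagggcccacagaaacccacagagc
Gpx4 OS 3659, chr10:79516087-79516226: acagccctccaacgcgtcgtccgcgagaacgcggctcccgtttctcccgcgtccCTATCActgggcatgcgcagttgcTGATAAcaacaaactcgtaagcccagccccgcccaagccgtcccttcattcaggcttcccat
Txnrd1 OS 3635, chr10:82331234-82331533: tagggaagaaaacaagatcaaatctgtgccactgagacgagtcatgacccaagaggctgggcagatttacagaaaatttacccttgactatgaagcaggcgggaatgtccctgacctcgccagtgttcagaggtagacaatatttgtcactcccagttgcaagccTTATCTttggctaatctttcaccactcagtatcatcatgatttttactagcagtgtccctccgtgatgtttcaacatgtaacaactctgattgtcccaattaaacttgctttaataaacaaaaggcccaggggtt
Txnrd1 OS 1320, chr10:82352308-82352472: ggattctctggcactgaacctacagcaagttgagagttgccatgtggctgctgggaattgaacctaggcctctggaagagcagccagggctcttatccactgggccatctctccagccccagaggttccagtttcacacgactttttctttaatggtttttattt
Of these 8 OS, 7 held WGATAR, beside 82.9% of all 4409 common OS and 9 of the 15 OS at the selenium genes. The exception was OS 1320 of Txnrd1. The motif counts were known when the 8 OS were set apart.

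Sepp1, Gpx3, Gpx4, Txnrd1 and Secisbp2 had at least 1 OS in their windows, and Gpx1, Txnrd2, Dio1 and Sephs2 had none. Among all 22380 protein-coding genes of the annotation, 27.7% had an OS in a window built in the same way. Gpx4 had 6 OS, a number reached or passed by 45 protein-coding genes (0.201%), and Sepp1 had 5, reached or passed by 106 (0.474%). Txnrd1 had 2 OS, and Gpx3 and Secisbp2 had 1 each. Windows of neighbouring genes overlap, so the same OS can count for several genes. The window of Gpx4 holds 4 other protein-coding genes and that of Sepp1 holds 2. Of the 15 OS, 11 lay upstream of the gene, 3 in the gene body and 1 downstream of it, and 5 lay within 10 kb of the body. The nearest protein-coding TSS was that of the selenium gene itself for 8 OS and that of a neighbour for the other 7.

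**Figure D1:**
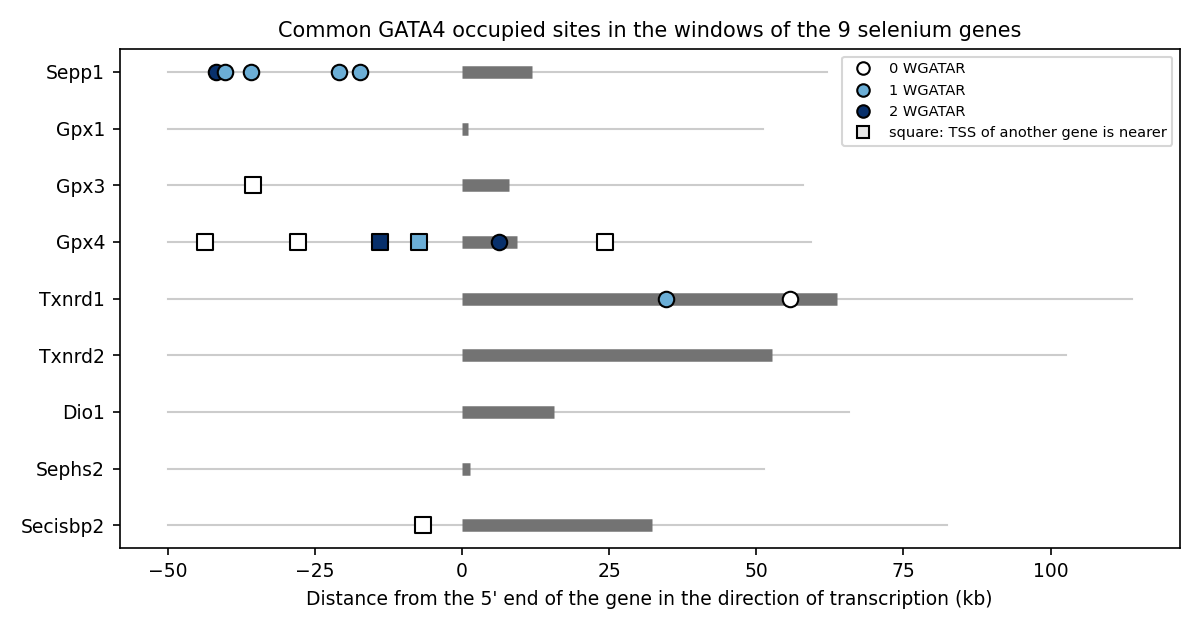
Position of the 15 common OS (symbols) relative to the 5′ end of each gene, in kb along the direction of transcription; thick bars are gene bodies and thin lines the windows of 50 kb on either side. Fill gives the number of WGATAR matches and squares mark OS nearer to the TSS of another gene: all 5 OS of Sepp1 are filled circles upstream of the gene, and 5 of the 6 OS of Gpx4 are squares.

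**Figure D2:**
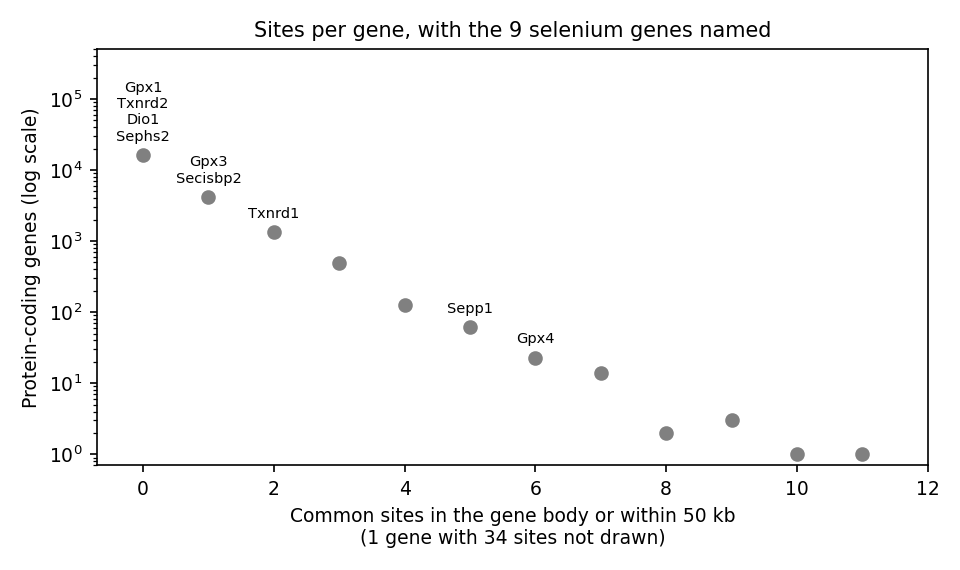
Number of protein-coding genes (log scale) by the number of common OS in the body or within 50 kb, with the 9 selenium genes named above their point. Most genes had 0 OS, as had Gpx1, Txnrd2, Dio1 and Sephs2, whereas Sepp1 with 5 and Gpx4 with 6 lay in the tail.

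Sepp1, which encodes the selenium carrier of plasma, lies on chromosome 15 from 3218547 to 3230508 on the plus strand. All 5 of its OS lay upstream of the gene in sequence without an annotated gene, and each had Sepp1 as its nearest protein-coding TSS. From the gene outward, the midpoints lay 17.3 kb (OS 2138), 20.9 kb (OS 185), 35.9 kb (OS 1809), 40.2 kb (OS 3550) and 41.8 kb (OS 1054) from the first annotated start. They thus fell into an inner pair 3530 bp apart and an outer group of 3 OS, with 15016 bp between both groups. The whole run spanned 24.4 kb. Of all 4409 common OS, 42 (0.953%) belonged to a run of at least 5 OS within such a span. Both limits were taken from the Sepp1 run itself, whose 5 OS are among the 42, so this share is a description only. A further common OS, number 2436, lay just outside the limit, 53.2 kb upstream of Sepp1. It held 1 WGATAR and also had Sepp1 as its nearest TSS. Among the OS at the selenium genes, the one farthest from its gene was OS 3662 of Gpx4, 43.6 kb from the body.

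Each Sepp1 OS overlapped a separate MACS2 peak. An overlap was required for entry into the common list, so 100% of the 4409 common OS have one. OS 185 was number 185 in the common list and number 662 in the MACS2 list, the foremost place of a Sepp1 OS in each. OS 1054 took number 1209 in the MACS2 list, OS 1809 number 2698, OS 3550 number 2703 and OS 2138 number 3666. The inner pair therefore held both the foremost of the 5 OS in each list and the one placed last by MACS2. List numbers were the only ordering that could be used, because the score column is 1000 for every peak, and the files do not say what the numbering follows. The methods name the signal value as the key for ordering peaks of SPP in the reproducibility step and the p-value as that for MACS2.

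In OS 1054 the words TGATAA and AGATAA both lay on the minus strand with their starts 16 bp apart, and their centres were 6.5 and 9.5 bp from the midpoint. OS 185 held AGATAA 14.5 bp from its midpoint, OS 1809 held TGATAA 21.5 bp away, and OS 2138 held AGATAA 28.5 bp away. OS 3550 differed from these, since its AGATAA lay 145.5 bp from the midpoint, at the edge of the peak. At Sepp1 the motif was thus within 50 bp of the midpoint in 4 of the 5 OS. Over all common OS the count was made by match and not by OS, and 73.8% of the matches lay as close. GC content was 41.1% in OS 2138, 41.6% in OS 185, 43.4% in OS 1054 and 45% in OS 3550, all below the median of 49.4% over all common OS, whereas OS 1809 had 54.2%.

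**Figure D3:**
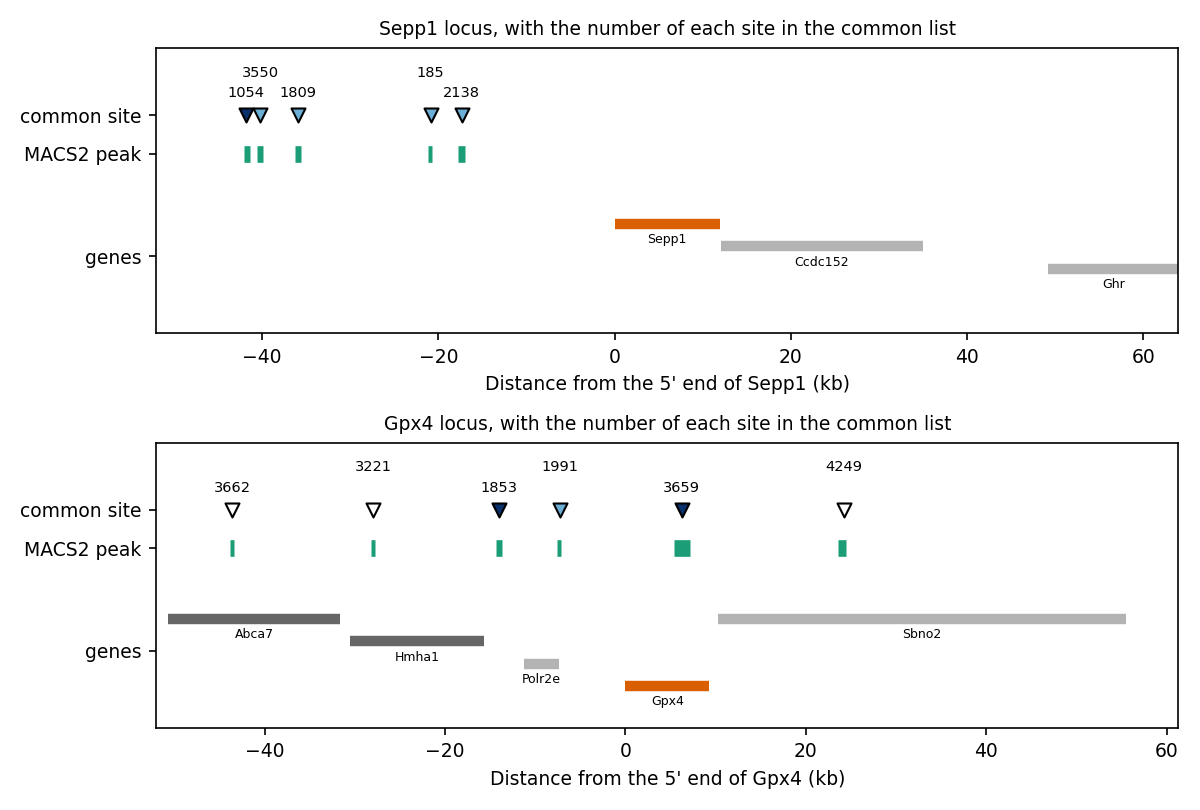
Sepp1 (upper) and Gpx4 (lower) with distance from the 5′ end of the gene in kb on the horizontal axis. Triangles are common OS, filled as above by the number of WGATAR matches and marked with their list number, green bars are MACS2 peaks at true width, and the gene is orange with neighbours on the same strand in dark grey and on the opposite strand in light grey; the OS of Sepp1 stand in a stretch with no protein-coding gene and those of Gpx4 among its neighbours.

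The glutathione peroxidases reduce peroxides with glutathione as the electron donor. Gpx4 acts on lipid hydroperoxides in membranes, and its loss leads to ferroptosis. The gene spans 79509911 to 79519184 on chromosome 10 in the annotation, but this body begins with a non-coding transcript, and the first protein-coding transcript starts at 79516233. OS 3659 lay 77 bp upstream of that start, in intron 2 of the non-coding transcript. The 140 bp of this OS were contained whole in 1 promoter sequence of Gpx4 in RefSeq (GRCm38.p6, 250 bases before to 50 bases after the start). It held TGATAG on the minus strand and TGATAA on the plus strand, with starts 24 bp apart and centres 12.5 and 11.5 bp on either side of the midpoint. The MACS2 peak here was 1813 bp wide, the widest of the 15, and was number 2559 in its list.

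The other 5 OS in the Gpx4 window stood at its neighbours. OS 1991 was 84 bp upstream of the TSS of Polr2e, which encodes a subunit of RNA polymerase II, and held 1 WGATAR. OS 3221 was 420 bp upstream of a TSS of Hmha1 and within intron 2 of its longer transcripts. OS 1853 lay 14.0 kb upstream of the Gpx4 body, 6525 bp downstream of the TSS of Polr2e, in sequence without an annotated gene. OS 3662 was in intron 15 or 16 of Abca7, depending on the transcript, and OS 4249 in an intron of Sbno2. Among these 5 OS, OS 1853 and OS 1991 held WGATAR. The 6 OS had numbers from 1853 to 4249 in the common list and from 972 to 4035 in the MACS2 list, and OS 3659, OS 3662 and OS 4249 stood late in the common list.

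Gpx3 encodes the peroxidase secreted into plasma, for which the kidney is the main source. Its single OS, number 739 (chr11:54680296-54680563), lay 35.5 kb upstream and 446 bp from the TSS of Hint1, in the first intron of that gene. This OS had 28 CpG dinucleotides, a GC content of 69.0%, the highest of the 15 OS, and no GATA core of either orientation. It was nonetheless the foremost of the 15 in the MACS2 list, at number 312. Gpx1, the cytosolic peroxidase that is abundant in hepatocytes, had no peak of any list in its window. The closest common OS was 352.7 kb away.

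Thioredoxin reductases return thioredoxin to its reduced form with NADPH. Txnrd1, the cytosolic enzyme, spans 82296696 to 82360469 on chromosome 10 and had both of its OS inside the gene. OS 3635 lay in an early intron, which is intron 1 or 2 depending on the transcript, 8297 bp downstream of the nearest annotated start. It held AGATAA on the minus strand, 18.5 bp from the midpoint. OS 1320 lay in intron 13 of 14 of the longest transcript, 29304 bp downstream of the nearest start. It had no WGATAR and a single GATA core, GGATAA, 12.5 bp from the midpoint. OS 1320 was ahead of OS 3635 in the MACS2 list as well, at number 1173 against 2954. MACS2 alone called a further peak 21934 bp upstream of Txnrd1. That peak was number 5708 of 5867 and lay 106 bp from the TSS of 1700028I16Rik. Txnrd2, the mitochondrial enzyme, had no peak of any list in its window, and its closest common OS was 295.0 kb away with Cldn5 as the nearest TSS.

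Dio1 encodes the deiodinase that forms active thyroid hormone in liver and kidney. It had no OS, and the closest common one was 131.1 kb away. Sephs2 makes selenophosphate, the selenium donor for selenocysteine, and is a selenoprotein itself. Its closest common OS was 63.3 kb away with Tbc1d10b as the nearest TSS. Secisbp2 encodes the protein that binds the selenocysteine insertion element of the mRNAs. Its OS, number 3468 (chr13:51740332-51740651), was 6575 bp upstream of the gene but only 110 bp upstream of the TSS of Cks2, a cell cycle gene. It held 31 CpG dinucleotides, the most of the 15 OS, and no WGATAR. A common OS within 10 kb of the body was thus present at Gpx4, Txnrd1 and Secisbp2, which is 3 of the 9 genes, whereas 13.7% of all protein-coding genes had one.

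Over the 15 OS, 9 (60.0%, Wilson 95% interval 35.7 to 80.2) held WGATAR, and over all common OS the share was 82.9%. OS of 1 locus are not independent, and the interval covers counting error only. The 9 OS carried 12 matches, of which 10 (83.3%) had their centre within 50 bp of the midpoint, beside 73.8% over all OS. The median distance was 19.0 bp, beside 27.5 bp for the 5734 matches of all OS. AGATAA made up 6 of the 12 matches, TGATAA 4 and TGATAG 2, and AGATAG, which gave 17.5% of the matches over all OS, was not seen. When each window was moved 5000 bp to the right, 2 of 15 held WGATAR, and 31.9% did so over all OS.

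**Figure D4:**
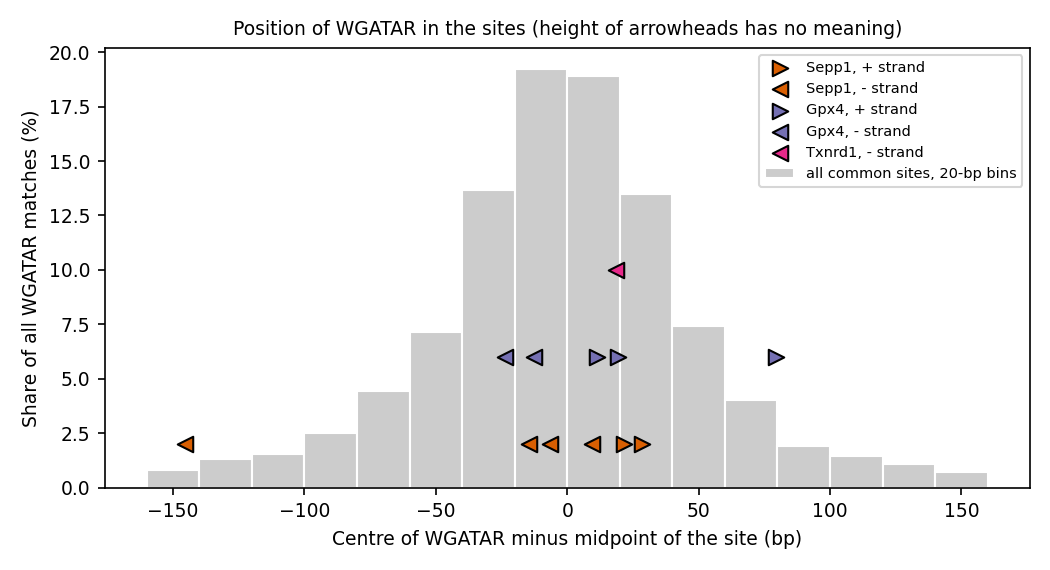
Centre of each WGATAR match relative to the midpoint of its OS in bp. Grey bars give the percentage of the 5734 matches of all common OS in 20-bp bins (matches beyond 160 bp are not drawn) and arrowheads the 12 matches at Sepp1, Gpx4 and Txnrd1, pointing in the direction of the strand; 10 of the 12 lie within 50 bp of the midpoint.

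WGATAR was present in 7 of the 8 OS nearest to a selenium gene and in 2 of the 7 OS nearest to another gene, a division made after the motif counts had been seen. Of the latter 7 OS, 4 lay within 1000 bp of a TSS, against 1 of the former 8. Median GC content was 56.1% (range 50.9 to 69.0) for OS nearest to another gene and 44.4% (41.1 to 61.4) for OS nearest to a selenium gene. In the whole common list, WGATAR was likewise less frequent near a TSS, with 470 of 651 OS (72.2%) within 1000 bp and 3185 of 3758 (84.8%) beyond. The part of TSS distance and of base composition in the division at the selenium genes was not tested.

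In the 6 OS without WGATAR, 4 had a GATA core with other flanking bases. OS 3662 and OS 4249 each held GGATAG and AGATAT, OS 3468 held AGATAT 5.5 bp from the midpoint, and OS 1320 held GGATAA. OS 739 and OS 3221 had no GATA core on either strand. Including any core raised the share from 9 to 13 of the 15 OS, beside 93.4% of all OS. This 4-base word is common, and in windows moved 5000 bp to the right 8 of 15 held it, beside 59.5% over all OS.

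Other sequence words were counted on both strands. TGACNNNGC, the core of the antioxidant response element through which NRF2 is known to act, was found in OS 1054 and OS 185 of Sepp1, OS 4249 in Sbno2 and OS 3635 of Txnrd1. These are 4 of 15 OS, beside 10.9% of all OS and 6.83% of windows 5000 bp to the right. In OS 3635 the word shared bases with AGGTCA, and in OS 4249 1 of its 2 copies shared bases with the AP-1 word TGANTCA. The nuclear receptor half-site AGGTCA was in 4 of 15 OS and 24.3% of all, and its copy in OS 1991 overlapped WGATAR. The ETS words, CCGGAAG or ACAGGAAG, were in 2 OS (12.9% of all). The forkhead words, TGTTTAC or TATTTAC, were in 1 OS (9.03% of all), which was OS 185. The C/EBP word TTGCNNAA was in OS 2138 alone (12.7% of all), CACGTG in OS 185 alone (3.97% of all), TGANTCA in OS 4249 alone (7.55% of all), and the HNF4 word CAAAGTCCA in 0 (1.16% of all). A match is a string of letters and not a site shown to be bound, and none of these counts was tested.

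RefSeq lists 16 promoters of 300 bases for the 9 genes, and WGATAR occurred in 3 of them, all alternative starts of Gpx4. Over all 32851 promoters the share was 29.8%.

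**Figure D5:**
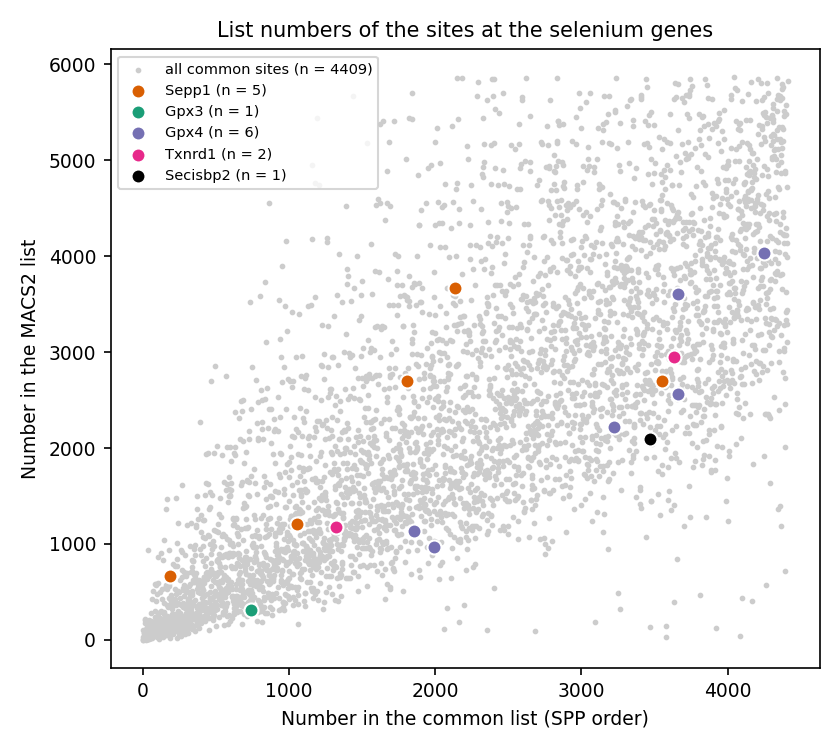
Number of each OS in the common list (horizontal axis, in the order of SPP) and of the MACS2 peak that overlaps it (vertical axis), for all common OS in grey and the OS of 5 genes in colour. The 15 OS run from number 185 (Sepp1) to number 4249 (Gpx4) on the horizontal axis and from 312 (Gpx3) to 4035 (Gpx4) on the vertical axis.

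The 15 OS were spread over the list from number 185 to number 4249. Their numbers had a median of 2138, beside 2205 for the list. Late in the list, 6 of the 15 had numbers from 3468 to 4249, which is 78.7% to 96.4% of the way down. The ends of that range are numbers of the OS themselves. Their MACS2 numbers had a median of 2217, beside 2195. Widths ran from 123 bp to 320 bp with a median of 198 bp, beside 190 bp for all OS. The commonest width in the list, 320 bp, was that of 5 of the 15 OS and of 25.6% of all OS. The 24-base words of 13 of the 15 OS each occurred once in the genome. The exceptions were OS 1320 of Txnrd1, with 69.7% of its words found once and up to 395 copies of a word, and OS 3550 of Sepp1, with 94.6% and up to 972 copies, and the part of repeated sequence in their calling was not tested.

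Beyond the 9 genes, 4 lists of the same biology were written by hand, and 36 of their 37 genes were found in the annotation. Of these 36 genes, 14 (38.9%) had a common OS in the 50 kb window, beside 27.7% of all protein-coding genes, and 6 (16.7%) had one within 10 kb, beside 13.7%. The counts of the single lists below stand beside the same 27.7%. Among the other selenoproteins, 6 of 15 had an OS. The closest was at Ept1, an enzyme of phosphatidylethanolamine synthesis, where OS 4022 lay 1681 bp inside the gene and held 2 WGATAR. Among genes of selenocysteine synthesis and insertion, 2 of 6 had an OS. Secisbp2l, the paralogue of Secisbp2, had OS 3640 only 61 bp inside its start, without WGATAR, and Sephs1, the paralogue of Sephs2 without selenocysteine, had OS 92 in the flank beyond its end, 7332 bp from the body. Eefsec, Pstk and Sepsecs, which build selenocysteine on its tRNA or bring it to the ribosome, had none.

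Of 8 genes of selenium uptake and turnover, Lrp8, Lrp2 and Inmt had an OS. At Inmt, a methyltransferase that also methylates selenium compounds, OS 3595 was 655 bp upstream of the start with 1 WGATAR. The paper reported GATA4 occupancy at Inmt by ChIP-qPCR. It also listed Inmt among the genes with higher mRNA in hepatocytes after excision of Gata4, and reported a significant change by RT-qPCR. At Lrp8 and Lrp2, receptors of selenoprotein P in brain and kidney, the OS were 46775 bp and 38101 bp beyond the end of the gene. For both of these OS the nearest protein-coding TSS was that of another gene. Scly, which releases selenium from selenocysteine, and Selenbp1 had none. Of 7 thiol partners and cysteine homologues, 3 had an OS, with OS 2202 inside Gpx7 and OS 1496 inside Msrb3. The thioredoxin gene Txn1 and glutathione reductase Gsr had none.

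Whole liver holds several cell types, and the peak lists do not say in which of them an OS was occupied. The authors excised Gata4 from hepatocytes and reported nearly complete loss of GATA4 by ChIP-qPCR, in hepatocytes and in all liver cells. The loci examined there were factor X, FOG1, HNF4α and HNF6, none of them among the 9 selenium genes or the wider lists. For Inmt of the wider lists, the paper gave occupancy and a change of mRNA after excision, as stated above. A common OS in the 50 kb window was present at 8 of 8 endothelial marker genes, 4 of 8 hepatocyte marker genes, 1 of 6 Kupffer cell genes, 0 of 5 stellate cell genes and 0 of 4 cholangiocyte genes, beside 27.7% of all protein-coding genes. Those with an OS within 10 kb were Pecam1, Cdh5, Stab2, Kdr, Tek, Clec4g and Oit3 of the endothelial list and Alb, Ttr and Hnf4a of the hepatocyte list. With SPP peaks in place of common OS, the hepatocyte count was 6 of 8, since Apob and Tat had SPP peaks that are not in the common list, beside 29.2% of all protein-coding genes. The part of each cell type in the OS at the selenium genes was not tested.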

How the data were processed

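GATA4 ChIP DNA and input DNA of whole liver were sequenced after 18 cycles of PCR and selection of 250 to 450 bp products. Per the labels and methods, the authors aligned reads to mm9 with Bowtie 0.12.7, kept uniquely mapped reads, ran MACS2 2.0.10 and a changed version of SPP on single replicates and on their merged reads, with the pooled input as background, kept peaks by their irreproducible discovery rate, and intersected both lists with bedtools 2.16.1, keeping SPP coordinates. The deposited score column is 1000 in all 4409 common, 4811 SPP and 5867 MACS2 peaks. The files hold no counts under single peaks, so no count model or test was applied, and the sequencing depth given in the methods cannot be tied to a peak. The input entered through the peak calls only.

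The genes, lists and motifs were chosen with earlier results of these data known. All 9 members were named, with every common OS in their windows, and for other genes those with an OS within 10 kb (37 pathway genes and 5 marker lists); Lrp8, Lrp2 and genes without a common OS were named after their values were seen. Sequences printed were those of OS in or within 5 kb of a member, or with a member's TSS nearest. Genes came from GENCODE M1 on NCBI Build 37, the build of the files, with every protein-coding transcript giving a TSS. Older symbols were matched through RefSeq, and Selv was not matched. Peaks overlapped when they shared at least 1 bp. WGATAR had to match without a mismatch, on either strand. Python 3.11.15, pysam 0.24.0, scipy 1.17.1 (Wilson intervals), matplotlib 3.10.9 and samtools 1.23.1 were used, and queries and the motif scan were tested on simulated data.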

Additional observations from a re-analysis of the deposited data

How the results depend on the processing

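No paired analysis was possible because the labels give 1 ChIP sample, and no replicate could be left out for the same reason. Values were recomputed under other settings, 43 of them listed at the outset with earlier results known and 2 added after seeing the data. Of these 45, 28 stayed within 1.5 times the count, or within the Wilson interval of the share, and 17 did not. A distance of 10 kb in place of 50 kb left 5 OS at 3 selenium genes, 0 of them at Sepp1, and 6 genes of the wider lists. A distance of 5 kb left 3 OS at 2 selenium genes, 0 at Sepp1, and 5 genes of the wider lists. With a distance of 100 kb there were 20 OS at 6 selenium genes, with 6 at Sepp1. Counting only OS with the gene's own TSS nearest gave 8 OS at 3 selenium genes and 6 genes of the wider lists, and kept the count of 5 at Sepp1. The common list up to its median number, 2205, held 8 of the OS, with 4 at Sepp1. Reciprocal overlap of 25% between SPP and MACS2 peaks gave 3 OS at Sepp1 and 9 genes of the wider lists. That setting removes narrow SPP peaks inside wide MACS2 peaks by construction. The share of OS with WGATAR was 53.3% in the central 100 bp (74.3% over all OS), 66.7% in 500 bp around the midpoint (89.6%), 75.0% in the MACS2 list (90.3%), 75.0% up to the median number (87.3%) and 86.7% with any GATA core (93.4%). It was 87.5% for OS nearest to a selenium gene and 28.6% for those nearest to another gene. All of the counts above are of 1 set of peak calls, and the reads under single peaks are not in the files.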
